A study of Homo sapiens with 18 samples.

Results

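The 40 genes described here encode ligands, ligand-binding proteins, receptors, intracellular mediators and target genes of transforming growth factor β (TGF-β), activin and bone morphogenetic protein (BMP) signalling. They were chosen by gene symbol and found by their Ensembl identifiers, and all 40 were among the 16575 genes of the expression table. Of these, 39 reached at least 5 CPM (tag counts scaled to a common library total) in at least 1 library, as did 13022 genes in all, and only ACVR2B, with at most 2.68 CPM, did not. Expression was measured by cap analysis of gene expression (CAGE), which counts the capped 5′ ends of transcripts, so that CPM carries no factor for transcript length and levels of different genes can be set side by side.

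The libraries came from 3 established human bladder carcinoma lines (CAL-29, HT-1376, RT-112), all taken through 2 successive lentiviral transductions with antibiotic selection. The first delivered WWOX, a WW domain oxidoreductase, or an empty control, and the second AP-2α, AP-2γ or an empty control. The resulting 6 variants are KK (control and control), KA (control and AP-2α), KC (control and AP-2γ), WK (WWOX and control), WA (WWOX and AP-2α) and WC (WWOX and AP-2γ). Each was sequenced once in each line, giving 18 libraries, and every library, KK included, carries both vectors and both selections. The variants of a line share its parental cells, so p-values below measure the spread between these transductants, and RT-112 was grown in another medium (RPMI-1640) than HT-1376 and CAL-29 (DMEM), so that cell line and medium cannot be told apart for it.

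In this pathway a dimeric ligand brings together type I and type II receptor kinases, which phosphorylate SMAD proteins. TGF-β and activin receptors act on SMAD2 and SMAD3, BMP receptors on SMAD1 and SMAD5, and both sets enter the nucleus with the shared partner SMAD4. Inhibitory SMADs, ubiquitin ligases and the corepressors SKI, SKIL and TGIF1 damp the response, which in epithelial cells is known for growth arrest and, in tumours, for epithelial-to-mesenchymal transition.

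Sequencing depth lay between 13357102 and 17958572 reads on genes, recovered from the CPM steps, so that 1 read was worth 0.0526 to 0.0709 CPM, and counts of 3 reads, the lowest level read as present, 0.158 to 0.213 CPM. With the library described next left out, the 16 urothelial and epithelial markers summed to at least 5285 CPM in each library, against at most 64.6 CPM for the 6 fibroblast markers analysed, 4.11 CPM for CDH5, the 1 endothelial marker analysed, and 24.1 CPM for CD68 and CD14. WWOX itself was at 22.3, 18.9 and 18.4 CPM in WK, WA and WC of RT-112 and at 26.0, 23.5 and 25.9 CPM in KK, KA and KC. In HT-1376 the same 3 WWOX variants held 18.6, 19.2 and 23.1 CPM, against 22.4, 24.7 and 16.9 CPM in the others, and in CAL-29 they held 154.9, 69.3 and 62.4 CPM, against 63.7 CPM in KK and 51.3 CPM in KA. The level of the gene therefore did not separate the variants in any line. In CAL-29 WK stood well above the others, while WC, at 62.4 CPM, was below KK. Whether transcripts of the vector were counted to WWOX was not tested, so the libraries are called WWOX-labelled below. TFAP2A, which encodes AP-2α, was higher in KA than in KK of each line (46.8 against 18.01 CPM in RT-112, 100.7 against 69.0 in HT-1376 and 49.9 against 35.4 in CAL-29), but in HT-1376 it was at 69.9 CPM in WA against 76.9 CPM in WK. TFAP2C, which encodes AP-2γ, was higher in KC than in KK (263.7 against 57.9 CPM in RT-112 and 213.9 against 158.2 in HT-1376) and in WC than in WK of each line, although HT-1376 WC, at 162.8 CPM, was close to KK. The library labelled RT-112 WA went against its label, with TFAP2C at 179.9 CPM, above the 142.7 CPM of WC, and TFAP2A at 25.3 CPM, against 20.3 CPM in WK. The library labelled CAL-29 KC went against its label: its median Pearson r, over all genes, was 0.94 to the HT-1376 libraries and 0.741 to the other CAL-29 libraries.

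Over the 39 signalling genes the library labelled CAL-29 KC was likewise nearest to HT-1376. Its median distance, in absolute log2(CPM + 0.5), was 0.64 to the HT-1376 mean, 1.30 to the CAL-29 mean and 1.52 to the RT-112 mean, and HT-1376 was the nearest line for 28 of the 39 genes. TGFBR2, the type II TGF-β receptor, was at 0 CPM in it, LTBP1 at 44.5 CPM and ID3 at 1688 CPM. That library is shown apart, and unless stated otherwise the values below come from the other 17 libraries.

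CAGE tags begin at the transcription start, and the windows just before the listed start are shown for 5 genes that carry the results below: TGFBR2 and BAMBI set the lines apart most among the receptors, SMAD6 among the SMADs, and ID1, ID3 and SMAD6 were higher with WWOX at an unadjusted p under 0.05. Each is the 250 bases before the RefSeq start (build GRCh38.p14), written 5′ to 3′ on the gene's strand, with capitals marking the AP-2 consensus GCCNNNGGC, the SMAD palindrome GTCTAGAC, the BMP-responsive motif GGCGCC or TATAAA, each searched on both strands.
TGFBR2 (chr3:30606351-30606600, plus strand): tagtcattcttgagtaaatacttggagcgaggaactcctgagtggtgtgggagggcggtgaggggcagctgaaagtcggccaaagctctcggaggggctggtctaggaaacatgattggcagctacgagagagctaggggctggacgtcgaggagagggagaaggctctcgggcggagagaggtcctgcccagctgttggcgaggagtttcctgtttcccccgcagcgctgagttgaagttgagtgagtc
BAMBI (chr10:28677271-28677520, plus strand): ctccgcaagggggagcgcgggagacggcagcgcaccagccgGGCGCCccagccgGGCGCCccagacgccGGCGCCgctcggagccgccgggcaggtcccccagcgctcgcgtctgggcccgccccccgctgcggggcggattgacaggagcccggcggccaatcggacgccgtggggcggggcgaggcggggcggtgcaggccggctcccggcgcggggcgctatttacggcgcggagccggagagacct
SMAD6 (chr15:66701986-66702235, plus strand): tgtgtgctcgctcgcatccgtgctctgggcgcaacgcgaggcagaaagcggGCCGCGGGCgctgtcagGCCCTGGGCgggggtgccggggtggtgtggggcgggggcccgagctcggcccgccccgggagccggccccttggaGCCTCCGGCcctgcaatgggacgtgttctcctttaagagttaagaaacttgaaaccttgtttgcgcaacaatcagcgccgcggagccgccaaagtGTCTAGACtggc
ID1 (chr20:31605039-31605288, plus strand): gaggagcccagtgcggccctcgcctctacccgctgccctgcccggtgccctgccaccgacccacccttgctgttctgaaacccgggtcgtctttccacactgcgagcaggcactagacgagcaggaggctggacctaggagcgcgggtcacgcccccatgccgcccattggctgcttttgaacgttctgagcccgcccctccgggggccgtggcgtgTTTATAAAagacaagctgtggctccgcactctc
ID3 (chr1:23559502-23559751, minus strand): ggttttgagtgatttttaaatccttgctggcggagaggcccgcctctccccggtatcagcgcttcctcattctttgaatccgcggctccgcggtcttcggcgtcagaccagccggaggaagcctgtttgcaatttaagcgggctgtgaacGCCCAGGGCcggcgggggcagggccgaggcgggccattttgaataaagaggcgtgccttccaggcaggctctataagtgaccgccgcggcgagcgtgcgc
The window of SMAD6 held 3 AP-2 motifs and the SMAD palindrome, that of ID3 1 AP-2 motif, that of BAMBI 3 BMP-responsive motifs and that of ID1 TATAAA on both strands in overlap, while that of TGFBR2 held none of the 4. Of the 37 members with a window, 13 held the AP-2 consensus (35.1%, against 19.8% of 35116 promoters), 12 the BMP-responsive motif (32.4%, against 16.4%), 4 TATAAA (10.8%, against 10.7%) and 1, SMAD6, the SMAD palindrome (2.7%, against 0.182%). BMP2, BMP7 and SKI had no entry. Each member had 1 window, while the 35116 promoters included several starts of some genes and were not limited to genes of the expression table. The shares therefore come from unlike sets. These matches describe letters in a window and were given no test.

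Single members differed widely in level between the cell lines, in comparisons where most genes differed. RT-112 held TGFBR2 and SMAD6 and next to no TGFB2 or LTBP2. HT-1376 held TGFB2, LTBP1, LTBP2, TGFBR3, ID2 and ID3 and next to no TGFBR2. CAL-29 held BMP2, BAMBI, LTBP2 and both TGFB2 and TGFBR2. SMAD6 and ID3 were present in all 3 lines and differed in level. In the additive limma fit, with a Benjamini-Hochberg adjusted p under 0.05 over 13022 genes, 28 of the 39 members differed between RT-112 and HT-1376 (12 higher and 16 lower in RT-112), where 62.2% of all genes did. Between RT-112 and CAL-29 28 members differed (3 higher and 25 lower in RT-112, background 72.4%), and between HT-1376 and CAL-29 31 did (5 higher and 26 lower in HT-1376, background 60.8%). The median member difference was −0.44, −1.35 and −1.11 on the log2 scale in these comparisons, against medians of −0.43, −0.82 and −0.45 over all genes.

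**Figure D1:**
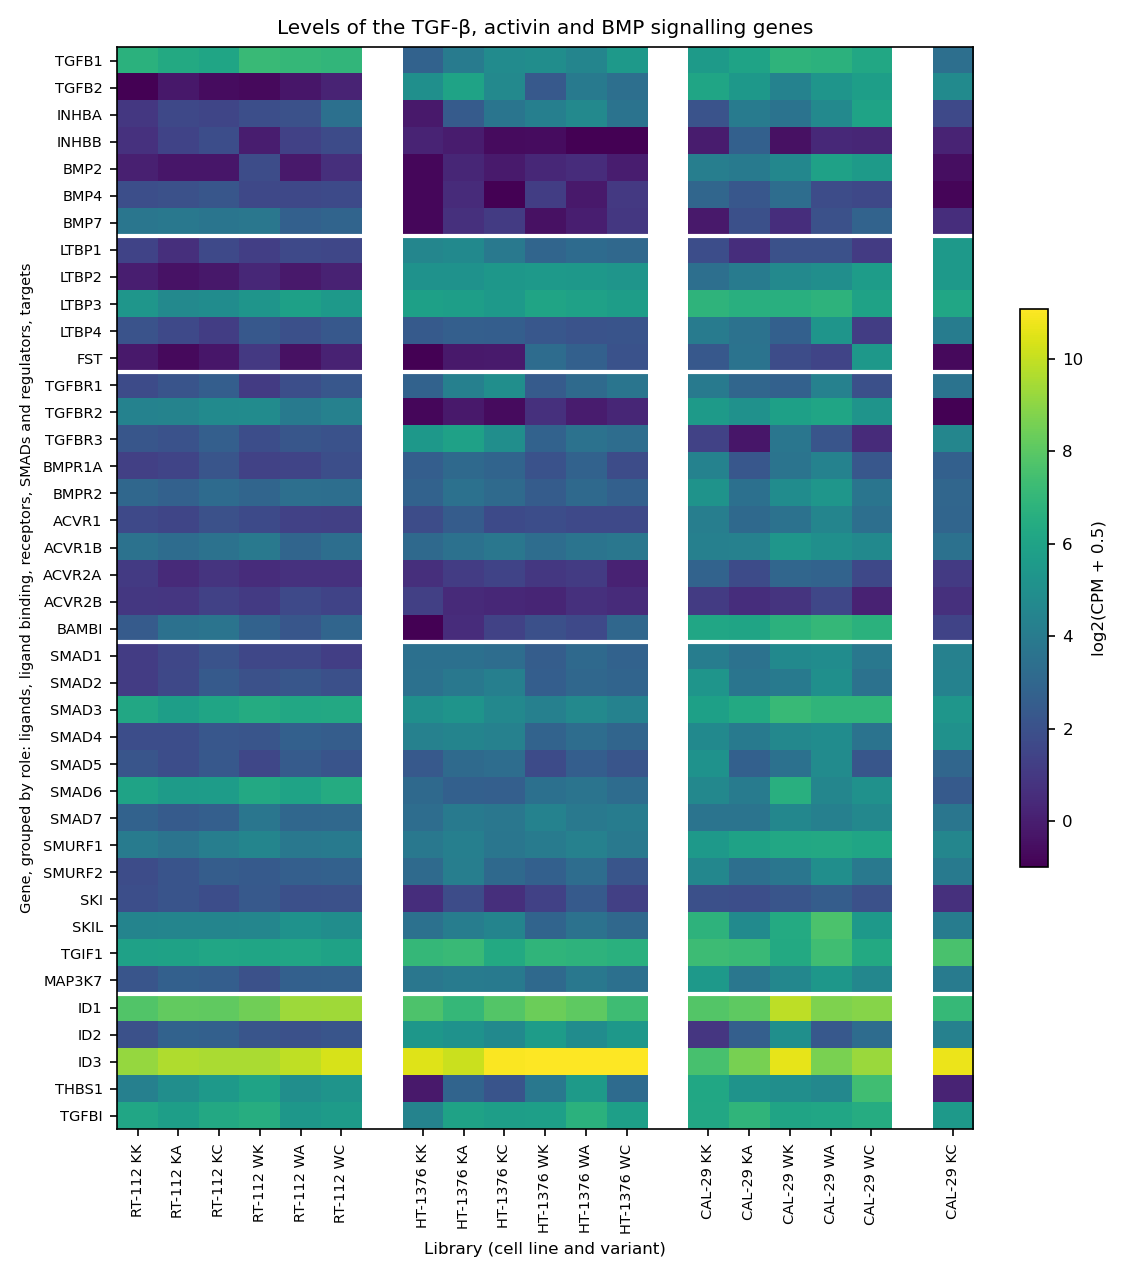
Level of each of the 40 genes (rows, grouped by role with white lines between groups) in each of the 18 libraries (columns, grouped by cell line), as log2(CPM + 0.5); the library labelled CAL-29 KC stands apart at the right. TGFB2 and LTBP2 are dark in RT-112, TGFBR2 is dark in HT-1376, and the library at the right follows the HT-1376 columns for TGFBR2, BMP2 and BAMBI.

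The deposited CPM were not scaled for RNA composition, and with trimmed mean (TMM) scaling the medians over all genes moved to −0.10, −0.17 and −0.11, and the share of called genes that were higher in the line named first moved from 31.5%, 22.0% and 30.1% to 47.5%, 44.6% and 46.3%. With TMM, 24 members differed between RT-112 and HT-1376 (12 higher, background 59.4%), 25 between RT-112 and CAL-29 (6 higher, background 69.8%) and 23 between HT-1376 and CAL-29 (5 higher, background 57.0%). In the direction given above, 24, 22 and 23 members were called with both scalings.

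Among the ligands, TGFB2 showed the widest gap. It lay between 0 and 0.66 CPM in RT-112 (median 0.25 CPM, n = 6), some of these below the level of 3 reads, and between 4.70 and 63.6 CPM in HT-1376 (median 20.3 CPM, n = 6), and CAL-29 held 67.9 CPM in KK, 42.3 in KA, 19.9 in WK, 38.9 in WA and 54.1 in WC. The RT-112 values overlapped with neither other line, while those of HT-1376 and CAL-29 overlapped. The difference between RT-112 and CAL-29 was −5.92 on the log2(CPM + 0.5) scale (SE 0.43, adjusted p = 1.68e-08) and that between HT-1376 and CAL-29 −1.25 (SE 0.43, adjusted p = 0.0204), and the latter was not called with TMM scaling. BMP2, a BMP ligand, was at 17.2, 14.8, 23.9, 59.8 and 46.9 CPM in KK, KA, WK, WA and WC of CAL-29, and did not exceed 3.00 CPM in RT-112 (median 0.47 CPM) or 0.96 CPM in HT-1376 (median 0.615 CPM). It was lower in HT-1376 than in CAL-29 by a log2 difference of −4.70 (SE 0.36, adjusted p = 2.79e-08), while RT-112 and HT-1376 differed by 0.25 (SE 0.34, adjusted p = 0.539). TGFB1 had the opposite order to TGFB2 between RT-112 and HT-1376, with medians of 113.7 and 25.1 CPM (log2 difference 2.30, SE 0.27, adjusted p = 2.55e-06), and BMP7 was at 5.93 to 13.8 CPM in RT-112 against 0.07 to 1.63 CPM in HT-1376.

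The ligand-binding proteins hold TGF-β in a latent complex in the matrix or, as follistatin (FST) does for activin, keep a ligand from its receptor. LTBP2 lay between 0.26 and 0.76 CPM in RT-112 (median 0.445 CPM) and between 35.2 and 45.2 CPM in HT-1376 (median 40.3 CPM), and CAL-29 held 10.1 CPM in KK, 15.8 in KA, 25.5 in WK, 31.0 in WA and 51.1 in WC. Its difference between RT-112 and HT-1376 was −5.38 (SE 0.24, adjusted p = 3.59e-11), and the 6 HT-1376 libraries varied little among themselves. LTBP1 was higher in HT-1376, at 7.28 to 26.3 CPM, than in RT-112, at 1.05 to 2.63 CPM, and CAL-29, at 1.00 to 3.44 CPM. LTBP3 was high in all 3 lines, with medians of 98.8 CPM in CAL-29, 56.1 in HT-1376 and 38.8 in RT-112.

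Among the receptors, TGFBR2 was present in RT-112 and CAL-29 and nearly absent from HT-1376. It ranged from 15.4 to 27.7 CPM in RT-112 (median 20.4 CPM) and from 0.07 to 1.09 CPM in HT-1376 (median 0.425 CPM), where KK and KC were below the level of 3 reads, and CAL-29 held 48.0, 34.3, 57.2, 67.6 and 37.7 CPM in KK, KA, WK, WA and WC. The difference between HT-1376 and CAL-29 was −5.65 (SE 0.26, adjusted p = 6.1e-11), that between RT-112 and HT-1376 4.57 (SE 0.24, adjusted p = 3.23e-10), and that between RT-112 and CAL-29 −1.09 (SE 0.26, adjusted p = 0.0015), which was not called with TMM scaling. BAMBI, a pseudoreceptor without a kinase domain that blocks TGF-β and BMP receptors, followed the same order of lines. It lay between 4.19 and 12.0 CPM in RT-112 and between 0 and 7.67 CPM in HT-1376, and CAL-29 held 71.1, 64.8, 106.7, 131.6 and 104.0 CPM in KK, KA, WK, WA and WC, above every library of the other lines. HT-1376 and CAL-29 differed by −5.31 (SE 0.45, adjusted p = 8.62e-08).

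TGFBR3, or betaglycan, a coreceptor that presents TGF-β2 to TGFBR2, was highest in the line where TGFBR2 was lowest. It was at 6.42 to 59.9 CPM in HT-1376 (median 21.1 CPM) and at 3.16 to 5.83 CPM in RT-112 (median 3.90 CPM), and CAL-29 held 2.13, 0.33, 12.9, 4.04 and 0.90 CPM in KK, KA, WK, WA and WC. The difference between HT-1376 and CAL-29 was 2.82 (SE 0.66, adjusted p = 0.0018), although their ranges overlapped. The other receptors, TGFBR1, BMPR1A, BMPR2, ACVR1, ACVR1B and ACVR2A, stayed between 0.60 and 40.4 CPM across the 17 libraries. Of the 9 receptors tested 8 were lower in RT-112 than in CAL-29, and 6 with TMM scaling. Of all 13022 genes, 7359 were called lower as deposited and 5037 with TMM (72.4% and 69.8% were called in either direction).

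**Figure D2:**
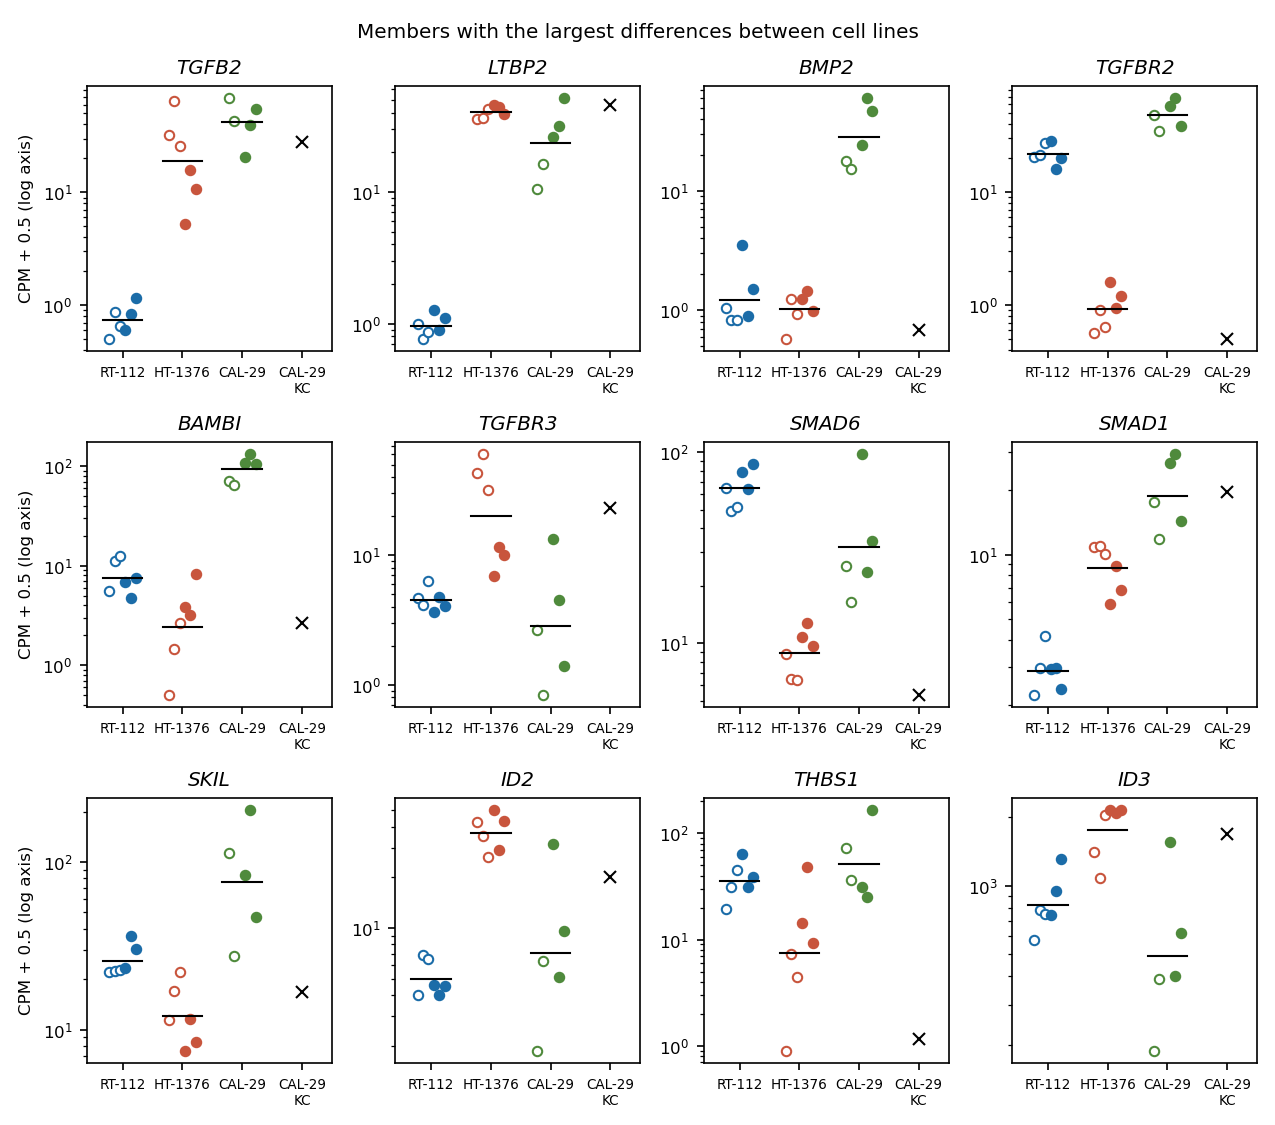
CPM + 0.5 on a log axis for the 12 members with the largest differences between lines, 3 per group of roles; points are libraries (open without, filled with the WWOX vector), lines the mean on the log scale, and the cross the library labelled CAL-29 KC. TGFBR2 in HT-1376 (0.07 to 1.09 CPM) lies below all libraries of RT-112 and CAL-29, and BAMBI in CAL-29 (64.8 to 131.6 CPM) above all others.

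Among the intracellular mediators, the inhibitory SMAD6 was highest in RT-112, at 48.5 to 86.6 CPM (median 63.9 CPM), and lowest in HT-1376, at 5.89 to 12.2 CPM (median 8.72 CPM). CAL-29 held 24.7 CPM in KK, 15.9 in KA, 97.1 in WK, 22.9 in WA and 33.8 in WC, so that WK stood above the range of RT-112 and the other libraries between the 2 lines. RT-112 and HT-1376 differed by 2.86 (SE 0.23, adjusted p = 4.33e-08). SMAD1, a BMP-activated SMAD, was lowest in RT-112 and highest in CAL-29. It was at 1.72 to 3.69 CPM in RT-112 (median 2.46 CPM), 5.39 to 10.4 CPM in HT-1376 (median 8.97 CPM) and 17.04, 11.3, 26.2, 28.9 and 13.9 CPM in KK, KA, WK, WA and WC of CAL-29. Its 3 lines did not overlap, and each pair was called (RT-112 against CAL-29 −2.70, SE 0.28, adjusted p = 7.96e-07). SKIL, a corepressor of SMADs and itself a TGF-β target, ranged from 6.94 to 21.5 CPM in HT-1376 and from 21.6 to 35.5 CPM in RT-112, and CAL-29 held 113.0, 27.0, 83.0, 203.6 and 46.5 CPM in KK, KA, WK, WA and WC. The HT-1376 libraries were all below those of the other lines (HT-1376 against CAL-29 −2.63, SE 0.43, adjusted p = 9.06e-05). Of the 13 mediators tested, 10 were lower in HT-1376 than in CAL-29 and none higher. With TMM scaling 6 were lower, where SKI, SMAD2, SMAD5 and SMURF2 were not called. Of all 13022 genes, 5536 were called lower as deposited and 3983 with TMM (60.8% and 57.0% were called in either direction).

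The ID genes encode inhibitors of basic helix-loop-helix factors and are classical BMP targets, and ID3 and ID1 were the most abundant members. ID3 reached 1088 to 2154 CPM in HT-1376 (median 2069 CPM) and 578.1 to 1313 CPM in RT-112 (median 768.7 CPM), and in CAL-29 it was at 187.2, 389.6, 1558, 400.7 and 617.6 CPM in KK, KA, WK, WA and WC. The CAL-29 WK library held several times the level of the other CAL-29 libraries, and HT-1376 differed from CAL-29 by 1.88 (SE 0.32, adjusted p = 1.42e-04). ID2 was at 26.0 to 49.7 CPM in HT-1376 (median 38.4 CPM), 3.47 to 6.37 CPM in RT-112 (median 4.06 CPM) and 1.35, 5.86, 31.3, 4.58 and 9.05 CPM in KK, KA, WK, WA and WC of CAL-29, with RT-112 against HT-1376 at −2.90 (SE 0.46, adjusted p = 5.74e-05). Here too CAL-29 WK was apart, inside the HT-1376 range. THBS1, or thrombospondin 1, which can release TGF-β from its latent complex, was at 0.39 to 47.7 CPM in HT-1376 and 18.8 to 63.1 CPM in RT-112, and CAL-29 held 71.8, 36.2, 30.8, 24.4 and 164.9 CPM in KK, KA, WK, WA and WC (HT-1376 against CAL-29 −2.70, SE 0.68, adjusted p = 0.00312).

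Among 90 other genes of the pathway, a wider list, 67 were in the table and 56 reached 5 CPM. Of these, 30 differed between RT-112 and HT-1376 (9 higher and 21 lower in RT-112), or 53.6% against 62.2% of all genes. Between RT-112 and CAL-29 43 differed (13 higher, 30 lower), or 76.8% against 72.4%, and between HT-1376 and CAL-29 38 (13 higher and 25 lower in HT-1376), or 67.9% against 60.8%. Those with the largest differences between lines included genes with next to no tags in 1 or 2 of the lines. CDKN2B, a TGF-β-induced inhibitor of the cell cycle, lay between 19.1 and 29.7 CPM in HT-1376 and at no more than 0.11 CPM elsewhere, and FBN1, the fibrillin to which latent complexes attach, between 8.83 and 45.5 CPM in HT-1376 and at no more than 0.60 CPM elsewhere. FSTL1, a follistatin-like secreted protein, was at 6.54 to 32.97 CPM in HT-1376 and 24.3 to 60.9 CPM in CAL-29, against at most 0.06 CPM in RT-112, and ENG, the coreceptor endoglin, was at 3.96 to 13.9 and 2.87 to 12.9 CPM in those 2 lines, against at most 0.27 CPM in RT-112. ID4, another ID gene, reached 275.9 to 604.1 CPM in HT-1376 against 4.27 to 10.8 CPM in RT-112 and 72.8 to 159.3 CPM in CAL-29, and MSX2, a BMP target, 130.5 to 354.4 CPM in HT-1376 and 100.9 to 118.4 CPM in RT-112 against 12.3 to 26.8 CPM in CAL-29. PMEPA1, a TGF-β target that restrains receptor SMADs, was at 53.8 to 132.5 CPM in RT-112 and 74.0 to 281.8 CPM in CAL-29 against 0.59 to 27.0 CPM in HT-1376, BMP3 was listed at 0 CPM in all HT-1376 libraries, and the protease gene HTRA1 was highest there, at 14.3 to 70.7 CPM.

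The study compared each variant with KK over the 3 lines, and the 5 comparisons share the KK libraries. None of the 39 members, and 0% of all genes, was called in any of the 5 by limma on the 18 libraries, with 7, 11, 38, 37 and 84 of 13022 genes at an unadjusted p under 0.05, and by edgeR none was called either. For KA, KC, WK, WA and WC in turn, the median member log2 fold change (log2FC) was 0.07, −0.23, 0.23, 0.29 and 0.09, against −0.04, −0.09, −0.08, 0.01 and −0.25 over all genes. For KC/KK it was −0.25 with the library labelled CAL-29 KC left out, 0.20 with that library left out and cell line as a block, and 0.28 without CAL-29. In WC/KK the median over all genes was −0.03 with TMM scaling, and that of the members was then 0.29, while it was 0.004 with a pseudocount of 2 CPM and −0.029 for the 36 members with 5 CPM in 3 libraries, so that its sign depended on the setting.

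INHBA, which encodes the βA subunit of activin A, had the largest log2FC and was above KK in each other variant of each line, except for the library labelled CAL-29 KC. In RT-112 KK held 1.44 CPM, KA 2.58, KC 2.35, WK 3.21, WA 3.52 and WC 10.4 CPM, and in HT-1376 the values were 0.39, 4.99, 12.6, 17.8, 25.4 and 11.6 CPM in the same order. CAL-29 held 3.81 CPM in KK, 16.0 in KA, 11.5 in WK, 24.8 in WA and 63.0 in WC, and the library labelled CAL-29 KC 2.68 CPM. KK was thus the lowest library of each line. This held for 12, 13 and 11 of the 39 members in RT-112, HT-1376 and CAL-29, INHBA among them, and for 19.6%, 18.3% and 16.5% of all genes. The log2FC of INHBA was 1.74, 2.26, 2.82 and 3.38 for KA, WK, WA and WC (SE 0.99 in each), with unadjusted p of 0.1, 0.0383, 0.0124 and 0.00397 and no adjusted p under 0.05 with limma. DESeq2 on recovered reads called WC/KK (adjusted p = 0.0165).

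Other members with the same sign in each line and a size of at least 1 were seen mostly in WK and WC. With values in the order RT-112, HT-1376, CAL-29, WK/KK gave log2FC of 0.46, 2.09 and 1.25 for TGFB1, 0.65, 0.64 and 1.99 for ID1, 0.36, 0.61 and 3.05 for ID3, and 0.20, 0.24 and 4.10 for ID2. The ID2 and ID3 means were therefore set by CAL-29. BMP2 gave 1.74, 1.13 and 0.46 and BAMBI 0.31, 2.94 and 0.58 in WK/KK. In WC/KK, ID3 (1.18, 0.60 and 1.72), FST (0.31, 3.06 and 3.15), THBS1 (1.00, 3.39 and 1.19), BAMBI (0.46, 4.03 and 0.55) and TGFB1 (0.26, 2.66 and 0.65) were positive, and TGFBR3 (−0.20, −2.10 and −0.91) and SMAD5 (−0.06, −0.18 and −2.92) negative. Values for BAMBI, THBS1 and TGFB1 were largest in HT-1376, whose KK library held 0, 0.39 and 6.51 CPM of them, the lowest of the 6 in each case. TGFB1 gave 0.35, 1.70 and 1.17 in WA/KK, and BMP7 0.08, 1.47 and 2.12 in KA/KK. For KC/KK, with RT-112 and HT-1376 only, TGFBR1 was at 0.88 and 2.18, BAMBI at 1.17 and 2.40 and THBS1 at 1.24 and 2.31. None of these log2FC had an adjusted p under 0.05 in limma, and SEs were 0.54 to 1.95.

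When all 17 libraries were used in an additive model of cell line, WWOX and AP-2, no member was called for WWOX, AP-2α or AP-2γ (0% of all genes in each, limma). At an unadjusted p under 0.05 the WWOX effect included 12 of the 39 members (30.8%), against 12.3% of all genes, 10 of them higher and 2 lower in the WWOX-labelled libraries. The median effect over the members was 0.08, against −0.08 over all genes. The 12 covered each role except the receptors, and the smallest adjusted p was 0.235. Leaving out all KK libraries left 5 of these 12 at that unadjusted p (ID1, INHBA, SMAD6, SMAD7 and TGFB1, with 5.13% of all genes), and leaving out all WK libraries also 5 (BMP2, ID1, ID3, INHBA and SMAD6, with 5.03%).

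**Figure D3:**
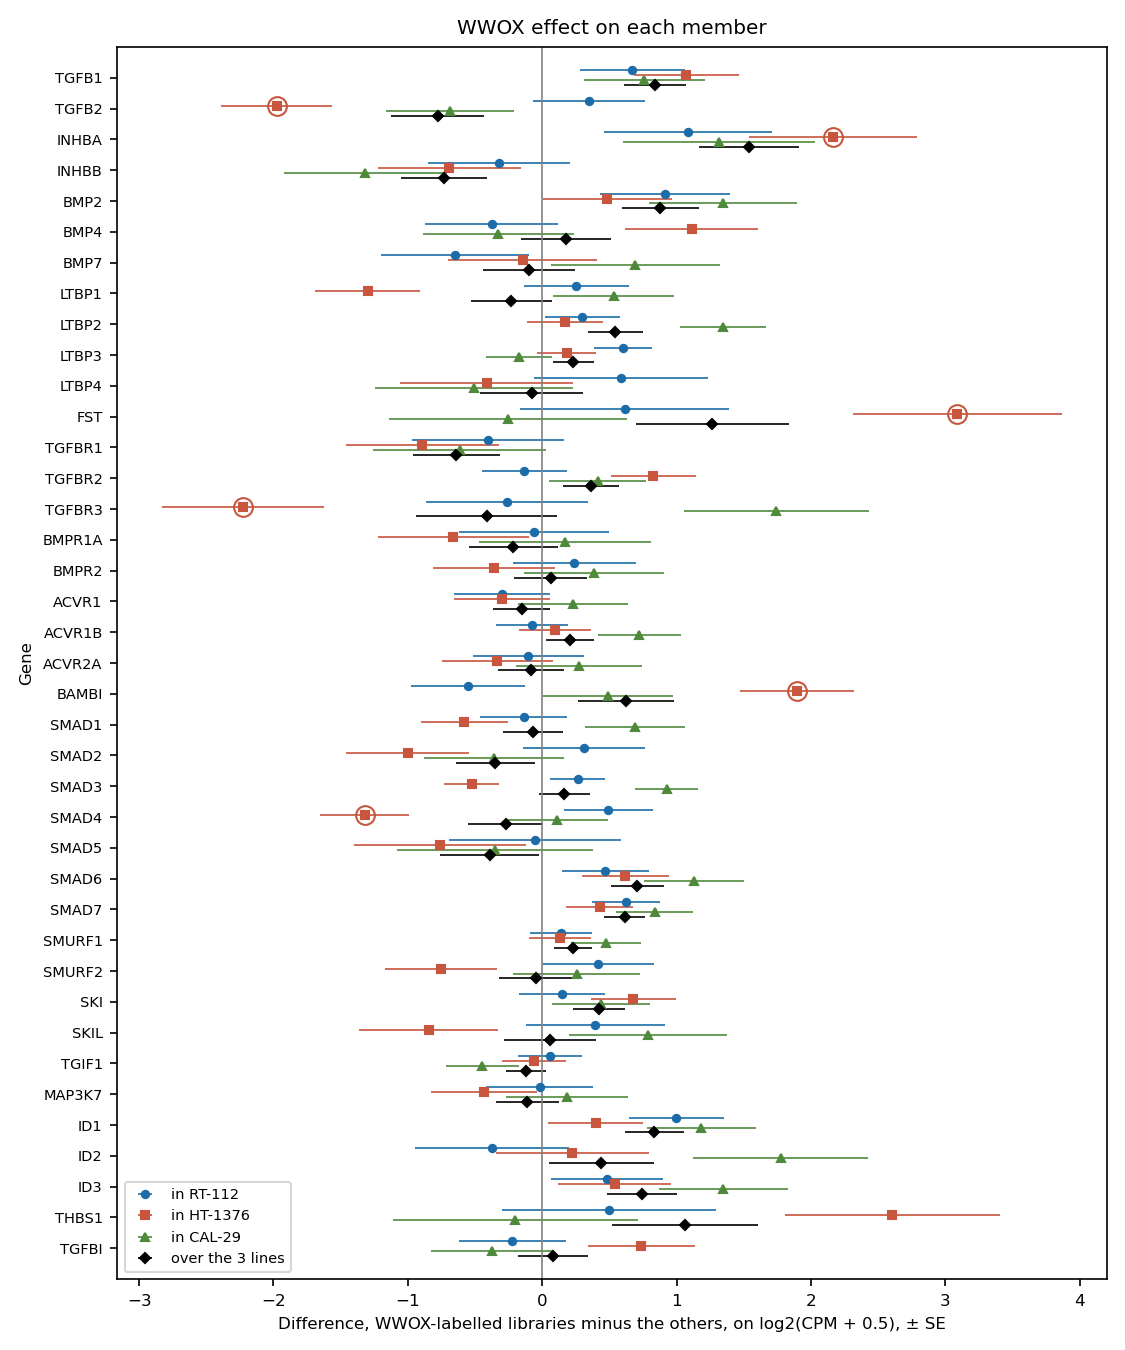
Difference between WWOX-labelled and other libraries for each of the 39 members, on log2(CPM + 0.5), with SE bars, within each line and over the 3 lines; rings mark an adjusted p under 0.05 in limma. Rings are found in HT-1376 alone, on TGFB2, INHBA, FST, TGFBR3, BAMBI and SMAD4, and SMAD7, ID1, TGFB1 and SMAD6 lie to the right of 0 in all 3 lines.

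Of the inhibitory SMADs and ID genes, SMAD6, SMAD7, ID1 and ID3 had a positive WWOX effect in each line, and ID2 did not (−0.37 in RT-112). SMAD7, the inhibitory SMAD of the TGF-β arm, was at 6.54, 5.10 and 5.88 CPM in KK, KA and KC of RT-112 and at 12.7, 7.66 and 8.08 CPM in WK, WA and WC, without overlap. In HT-1376 it was at 9.34, 14.6 and 13.5 CPM and then 20.2, 14 and 16.3 CPM, with overlap, and in CAL-29 at 11.9 and 12.0 CPM in KK and KA and 23.5, 18.5 and 24.1 CPM in WK, WA and WC, without. The effect over the lines was 0.61 (SE 0.15, unadjusted p = 9.71e-04, adjusted p = 0.235). ID1 held 220.3, 291.7 and 281.6 CPM in KK, KA and KC of RT-112 and 346.8, 638.1 and 653.2 CPM in WK, WA and WC. In HT-1376 it held 207.0, 129.7 and 227.6 CPM and then 323.8, 267.1 and 162.0 CPM, and in CAL-29 232.2 and 273.0 CPM in KK and KA and 923.0, 423.0 and 471.1 CPM in WK, WA and WC. The 2 sets did not overlap in RT-112 and CAL-29 and overlapped in HT-1376, and the effect was 0.83 (SE 0.22, adjusted p = 0.246). ID3 had an effect of 0.74 (SE 0.26, adjusted p = 0.319) and SMAD6 of 0.71 (SE 0.20, adjusted p = 0.254).

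Among the ligands and their binding proteins, the effect was 1.54 for INHBA (SE 0.37, adjusted p = 0.235), 0.84 for TGFB1 (SE 0.23, adjusted p = 0.254), 0.88 for BMP2 (SE 0.29, adjusted p = 0.302), 1.27 for FST (SE 0.57) and 0.54 for LTBP2 (SE 0.20). TGFB2 (−0.78, SE 0.34) and INHBB (−0.73, SE 0.32), which encodes the βB subunit of activin B, were the 2 members with a negative effect at this p, and the corepressor SKI (0.42, SE 0.19) was the twelfth. INHBA also had positive AP-2 effects, 1.15 (SE 0.44) for AP-2α and 1.61 (SE 0.47) for AP-2γ, at unadjusted p of 0.0189 and 0.00342. For AP-2α, INHBB (0.83, SE 0.38) and SMAD6 (−0.60, SE 0.23), and for AP-2γ, BMP7 (1.16, SE 0.43) were the other members at an unadjusted p under 0.05, which 1.53% and 2.63% of all genes had. No adjusted p for AP-2α or AP-2γ was under 0.05. As the levels of TFAP2A and TFAP2C went against the label of RT-112 WA and did not separate HT-1376 WA from WK, these are effects of the labels. Without the library labelled RT-112 WA the AP-2α effect on INHBA was 1.38 (SE 0.45) and the AP-2γ effect 1.57 (SE 0.45), with 4 and 2 members at that unadjusted p (1.31% and 2.6% of all genes). Without HT-1376 the WWOX effect on FST was 0.16 and that on TGFB2 −0.14.

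Taken line by line, WWOX-labelled libraries were all higher than the others for 5 members in RT-112 (12.8%, against 9.48% of all genes), 6 in HT-1376 (15.4%, against 12.8%) and 11 in CAL-29 (28.2%, against 9.0%), and all lower for 1 (2.56%, against 11.5%), 7 (17.9%, against 22.8%) and 0 (against 9.8%). In CAL-29 3 libraries were compared with 2, and in the other lines 3 with 3. The 5 members of RT-112 were TGFB1, INHBA, SMAD7, SKIL and ID1, and the 11 of CAL-29 TGFB1, BMP2, LTBP2, ACVR1B, BAMBI, SMAD3, SMAD7, SMURF1, SKI, ID1 and ID3. In HT-1376 FST, TGFBR2, BAMBI, SMAD6, ID3 and THBS1 were all higher and TGFB2, LTBP1, LTBP4, TGFBR3, SMAD1, SMAD2 and SMAD4 all lower.

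Within HT-1376, the limma fit with a WWOX term for each line called 6 members, 3 higher and 3 lower, where it called 8.59% of all genes. No member was called in RT-112 (0% of all genes) or CAL-29 (0.591% of all genes), where 6 members and 5.27% of all genes were called without the WA library. In RT-112 3 of the 39 members (LTBP3, ID1 and SMAD7) had an unadjusted p under 0.05 (limma), as did 979 of 13022 genes. TGFB2 fell in HT-1376, from 31.9, 63.6 and 25.3 CPM in KK, KA and KC to 4.70, 15.3 and 10.2 CPM in WK, WA and WC (−1.98, SE 0.41, adjusted p = 0.0118). TGFBR3 fell from 42.9, 59.9 and 31.1 CPM to 6.42, 11.1 and 9.59 CPM (−2.22, SE 0.60, adjusted p = 0.0373), and SMAD4 from 19.3, 21.2 and 19.2 CPM to 6.59, 9.46 and 7.18 CPM (−1.32, SE 0.33, adjusted p = 0.0276). In all 3 genes the sets were well apart, and a ligand, the coreceptor that presents it and the shared SMAD were among those that were lower.

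The members that rose in HT-1376 included both activin A and its inhibitor. FST was at 0, 0.40 and 0.43 CPM in KK, KA and KC and at 9.12, 5.94 and 3.67 CPM in WK, WA and WC (3.09, SE 0.78, adjusted p = 0.0279), and INHBA rose from 0.39, 4.99 and 12.6 CPM to 17.8, 25.4 and 11.6 CPM (2.16, SE 0.63, adjusted p = 0.0474). The FST sets were apart and those of INHBA overlapped. BAMBI rose from 0, 0.96 and 2.13 CPM to 3.33, 2.68 and 7.67 CPM (1.90, SE 0.42, adjusted p = 0.0158). THBS1 (0.39, 6.81 and 3.90 CPM, then 13.9, 47.7 and 8.82 CPM, adjusted p = 0.0601) and LTBP1 (22.9, 26.3 and 14.04 CPM, then 7.28, 8.82 and 7.94 CPM, adjusted p = 0.0567) came next and did not pass.

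Of the wider pathway list, 7 of 56 genes were called in HT-1376 (12.5%, against 8.59% of all genes). Calls over all genes fell from 1118 to 382 without the HT-1376 KK library and to 298 without its WK library. Whether the calls of the wider list held there was not tested. NOG (noggin, a BMP antagonist, 2.22, SE 0.43), PMEPA1 (2.81, SE 0.57) and MSX1 (1.70, SE 0.37) were higher, and RGMA, a BMP coreceptor (−2.28, SE 0.43), INHA, the inhibin α subunit (−2.46, SE 0.56), FBN1 (−1.68, SE 0.34) and FSTL1 (−1.55, SE 0.37) lower. NOG was at 0, 1.19 and 1.63 CPM in KK, KA and KC and at 7.97, 4.54 and 3.78 CPM in WK, WA and WC.

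Other features of these HT-1376 libraries moved with WWOX. COL1A2, a fibroblast collagen, was at 2.5, 4.37 and 1.49 CPM in KK, KA and KC and at 21.4, 46.1 and 18.9 CPM in WK, WA and WC, and the epithelial keratin KRT19 at 84.7, 94.9 and 12.6 CPM and then 378.1, 234.7 and 308.4 CPM. The epithelial markers did not move together. KRT7 was lower, at 8612, 7331 and 8040 CPM and then 5108, 6648 and 5498 CPM, as were KRT8 and KRT18. Of the fibroblast markers, COL1A1 was also higher, at 1.32, 5.45 and 11.13 CPM and then 14.85, 13.23 and 23.28 CPM. ACTA2 was too, at 1.32, 1.31 and 1.13 CPM and then 3.5, 4.98 and 3.62 CPM, both without overlap. COL3A1, another fibroblast collagen, was at 1.51, 2.78 and 0 CPM and then 0.11, 0.19 and 0.22 CPM, with overlap. LUM stayed at no more than 0.22 CPM and FAP at 0 CPM. The 6 fibroblast markers analysed summed to between 6.65 and 64.6 CPM in HT-1376. Among the 68 genes whose level reached 20 CPM in CAL-29 KK but stayed under 0.5 CPM in KK of the other lines, 12, 12 and 13 reached 10% of the CAL-29 KK level in WK, WA and WC of HT-1376, with a median of 1.80%, 1.24% and 2.20% of that level, against 8 in KA and in KC, with medians of 0.601% and 0.746%. BAMBI, TGFBR2 and FST were at 71.1, 48.0 and 4.43 CPM in CAL-29 KK. The part of these features in the results was not tested. All 6 calls were lost without the HT-1376 KK library (adjusted p from 0.0654 for TGFB2 to 0.211 for INHBA) and without its WK library (0.0897 to 0.265). Over the 17 fits that left out 1 library each, INHBA lost its call in 11 and TGFBR3 in 10, FST and SMAD4 in 5 each, and BAMBI and TGFB2 in 3 each.

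The WWOX effect differed between the lines for 3.02% of all genes by the F test of the interaction, and for 1 member, SMAD3, the SMAD that carries TGF-β and activin signals (adjusted p = 0.048). It was at 75.8, 53.8 and 68.9 CPM in KK, KA and KC of RT-112 and 85.6, 74.2 and 77.0 CPM in WK, WA and WC. HT-1376 held 31.8, 37.4 and 24.3 CPM and then 18.6, 25.4 and 20.2 CPM, and CAL-29 58.4 and 80.6 CPM in KK and KA and then 141.3, 120.4 and 120.7 CPM. The WWOX-labelled libraries were thus above the others in CAL-29 and overlapped with them in RT-112 and HT-1376, with effects of 0.93 (SE 0.23), 0.26 (SE 0.21) and −0.53 (SE 0.21), in CAL-29, RT-112 and HT-1376. Exact two-sided permutation tests within each line gave p = 0.2, the smallest value possible in CAL-29 (3 against 2 libraries), while 3 against 3 can reach 0.1. The call was kept in 4 of 17 fits that left out 1 library each, where the adjusted p ranged from 0.0329 to 0.129, and was not made by edgeR (adjusted p = 0.138) or with TMM scaling (0.0881). Of the wider list RGMA alone was called (adjusted p = 0.0492).

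**Figure D4:**
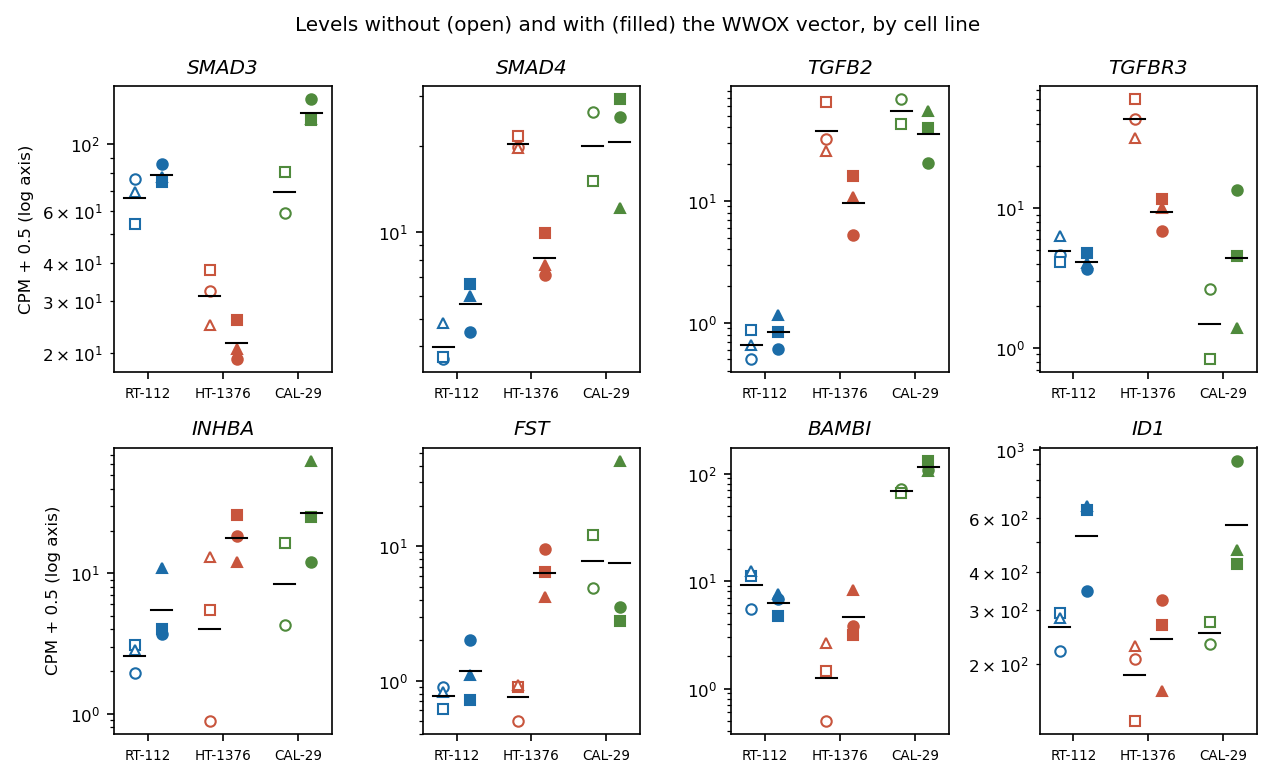
CPM + 0.5 on a log axis in libraries without (open) and with (filled) the WWOX vector, by cell line, for SMAD3, the 6 members called in HT-1376 and ID1; circles have no AP-2 vector, squares AP-2α and triangles AP-2γ, lines are means on the log scale, and the library labelled CAL-29 KC is left out. SMAD4, TGFB2 and TGFBR3 separate in HT-1376 with the filled points lower, and SMAD3 separates in CAL-29 with the filled points higher.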

How the data were processed

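CAGE libraries were sequenced as 75 nt single-end reads and mapped by the authors to hg38 with BWA and, for reads left unmapped, HISAT2 (version 2.0.5 in the submitters' processing notes). The authors deposited CPM per gene in 1 table of 18 libraries, and the per-library files repeat its values. The 16575 Ensembl identifiers were joined to GENCODE release 44 symbols on the same build (22 had none). Members, gene lists and marker lists were chosen with earlier results of these data known. Genes were named by a rule: members called in a WWOX, AP-2 or interaction test (within lines included), up to 3 per group of roles with the largest difference between lines, and members with the same sign in each line (2 lines for KC/KK) and a mean log2FC of at least 1 against KK. LTBP1, LTBP3, BMP7 and ACVR2B were named outside it after their values were seen, as were non-overlapping members, those at an unadjusted p under 0.05 and the called genes of the wider list. One gene of the wider list is not reported here.

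Values were tested as log2(CPM + 0.5) with limma 3.58.1 (trended variance, R 4.3.3), for genes with at least 5 CPM in 1 library, with Benjamini-Hochberg adjustment over all 13022 genes, and a fold on this scale understates that of low genes. Variants were compared with KK without a cell line term, which the study's methods do not mention; its own fit used voom weights and TMM scaling, run here as alternatives. WWOX, AP-2, cell line and interaction effects were fitted on 17 libraries with cell line as a term. The same line pairs the libraries, and deviations from the variant means correlated at 0.588 or more within each line once the library labelled CAL-29 KC was left out. CPM steps gave whole reads for 99.97% to 99.99% of values (tolerance 0.0052 CPM), and edgeR 4.0.16, limma-voom and DESeq2 1.42.0 were run on those reads. No pair of libraries of 1 line agreed within counting noise (lowest chi-square per degree of freedom 19.4). Whether the libraries were amplified or carried molecular identifiers is not given in the sources used here, and the level of 3 reads covers counting error only. The fits were tested on simulated data. Promoters are RefSeq's (GRCh38.p14), taking the listed start nearest to the GENCODE start. Figures were drawn with matplotlib 3.10.9.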

Additional observations from a re-analysis of the deposited data

Results flagged for a closer look

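Of 117 groups, each 1 member in the 5 or 6 libraries of 1 cell line, 3 had a library far from the rest by Dixon's criterion (2.56%, where chance alone flags about 1 group in 20). INHBB was at 5.92 CPM in CAL-29 KA, with the next highest library at 0.82 CPM. LTBP3 was at 61.1 CPM in CAL-29 WC, with the next lowest at 98.4 CPM. ACVR1 was at 5.28 CPM in HT-1376 KA, with the next highest at 3.15 CPM.

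The WWOX effect on SMAD3 differed between the cell lines in the interaction test (limma, adjusted p = 0.048), with the values of each library given above.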

How the results depend on the processing

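Of the alternatives for counts and medians, 403 stayed within 1.5 times the count or within the spread of the lines and 57 moved, and no called value changed sign. For single genes 1076 stayed, 107 lost the call and 17 moved. The cause of the shifts was not tested. DESeq2 called 1 member in WC/KK. With cell line as a replicate block no member was called against KK (limma), and without the block 3 members for WWOX, 0 for AP-2α and 0 for AP-2γ had an unadjusted p under 0.05. That count for AP-2α was 1 with all 18 libraries, and for AP-2γ 1 with a pseudocount of 2 CPM and 4 with TMM scaling. Against a minimum log2 difference of 1 (TREAT), 8, 12 and 14 members differed between RT-112 and HT-1376, RT-112 and CAL-29, and HT-1376 and CAL-29, where 18.2%, 28.3% and 14.8% of all genes did. With all 18 libraries 1 member was called for WWOX in HT-1376 (241 of all genes, against 1118), 1 in CAL-29 and 0 for the interaction (0 of all genes, against 393). In CAL-29 1 was also called with a pseudocount of 2 CPM and 1 without the AP-2 term, and for the interaction 0 with a pseudocount of 0.05 CPM, 2 with 2 CPM and 3 with TMM scaling. The WK/KK median was 0.147 with a pseudocount of 2 CPM, 0.137 without the filter, 0.137 with 5 CPM in 3 libraries, 0.304 with TMM, 0.322 with voom, 0.313 with edgeR and the block and 0.305 with DESeq2, and the WC/KK median 0.398 with voom. Leaving out a line, a variant or a library gave 5 to 13 members for WWOX, 1 to 5 for AP-2α and 1 to 5 for AP-2γ at that unadjusted p, a WK/KK median of 0.063 to 0.256, and 0 to 8 calls for WWOX in HT-1376, 0 to 6 in CAL-29 and 0 to 5 for the interaction. Single-library omissions, and the WWOX and AP-2 fits without HT-1376 KK or RT-112 WA, were chosen after seeing the data. Genes near 3 reads, such as TGFB2 in RT-112 and TGFBR2 in HT-1376, are limited by depth.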

Other observations

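In CAL-29 several receptors and SMADs were lower in KA and WC than in the other libraries. SMAD5, a BMP-activated SMAD, was at 35.6, 10.8 and 28.2 CPM in KK, WK and WA and at 6.08 and 4.27 CPM in KA and WC, and BMPR1A, a type I BMP receptor, at 20.1, 12.0 and 20.1 CPM and then 4.42 and 4.33 CPM. BMPR2, its type II partner, was at 36.3, 29.1 and 40.4 CPM and then 10.4 and 12.5 CPM. SKIL was at 113.0, 83.0 and 203.6 CPM and then 27.0 and 46.5 CPM. TGFB1 (47.9, 114.9 and 108.6 CPM, then 62.8 and 75.7 CPM) and SMURF1, a ubiquitin ligase for SMADs (46.4, 74.1 and 76.5 CPM, then 61.9 and 67.0 CPM), did not follow this split. Over all 13022 genes the median deviation from the mean of the 5 libraries was −0.11 in KA and −0.34 in WC, against 0.16, 0.02 and 0.22 in KK, WK and WA, and that of the members was −0.46 and −0.20 against −0.10, 0.14 and 0.48. The split was noticed in these values and was given no test, and the part of the library-wide deviation in it was not tested.

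CAL-29 WK held the highest level of SMAD6 (97.1 CPM), ID1 (923.0 CPM), ID2 (31.3 CPM) and ID3 (1558 CPM) among the CAL-29 libraries, and also of WWOX (154.9 CPM).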
